A study of Mus musculus with 5 samples.

Results

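The cytosolic ribosomal protein genes were taken by symbol: Rpl or Rps followed by a digit, with Rplp0, Rplp1, Rplp2 and Rpsa, and without the Rps6k kinases and pseudogenes. They number 87 of the 22267 genes with a symbol in the table. Of these, 77 encode proteins of the standard ribosome, 46 of the large subunit (3 of them in its stalk) and 31 of the small subunit. The other 10 carry such a symbol without being standard subunits: 8 paralogs (Rpl3l, Rpl7l1, Rpl10l, Rpl22l1, Rpl32l, Rpl36al, Rpl39l and Rps27l), the retrogene Rps23rg1 and the binding protein gene Rps19bp1.

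The study sequenced mRNA of the mouse embryonic stem cell line E14, labelled as strain C57BL/6, and each of its 5 groups is a single library. A normal E14 library and a library of E14 cells labelled as overexpressing Hk2 and Pkm2 came from culture with LIF (leukemia inhibitory factor), which sustains self-renewal. Cells with the overexpression label are called HP-labelled below, after the suffix of their titles. A further pair, again 1 normal and 1 HP-labelled, came from cells deprived of LIF for 24 hours and then given it again, called the 24 hour libraries below. The fifth library came from HP-labelled cells kept 40 days without LIF, for which no normal library was given. The vector, promoter and number of clones behind the HP-labelled cells are details not given in the sources used here. Ratios between libraries therefore lack any check against replicates and are given as descriptions.

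Ribosomal proteins bind ribosomal RNA in a fixed stoichiometry, so that a cell needs nearly equal numbers of each. Their mRNAs carry a short pyrimidine tract at the 5′ end, the TOP motif, through which growth signals acting on mTOR set their translation. Most of their genes have left many intronless copies in mammalian genomes through reverse transcription, and reads from a gene and from such a copy can be hard to tell apart. Growing embryonic stem cells are known for strong ribosome production.

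The copies may bear on the values of this family. The 2 pairs of sequences below were picked because the row of the copy stood above 150 FPKM (fragments per kilobase, also scaled to sequencing depth). In each the row of the gene stood at or near 0. Rps15a with another copy, Rps15a-ps6, and Rpl22l1 with its copy Gm15421 had a like pattern, while other pairs did not. Rplp2 encodes an acidic protein of the stalk, which recruits translation factors. Over its whole coding sequence of 348 bases it differs from its copy Rplp2-ps1 at 2 bases. The stretch covers coding bases 46 to 165, and the copy lies at chr12:76732141-76732260 on the minus strand (mm9). Capitals mark the bases that differ.
Rplp2: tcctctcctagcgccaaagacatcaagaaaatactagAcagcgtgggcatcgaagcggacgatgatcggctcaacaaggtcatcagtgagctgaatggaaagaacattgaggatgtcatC
Rplp2-ps1: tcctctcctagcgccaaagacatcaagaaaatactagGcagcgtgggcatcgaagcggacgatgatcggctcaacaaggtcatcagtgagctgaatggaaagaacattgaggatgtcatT

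Rps15a, a small subunit protein, differs from its copy Rps15a-ps4 at 10 of 393 coding bases, of which 6 lie in coding bases 272 to 391. The copy of this stretch lies at chr4:131775962-131776081 on the minus strand (mm9), and capitals again mark the differing bases.
Rps15a: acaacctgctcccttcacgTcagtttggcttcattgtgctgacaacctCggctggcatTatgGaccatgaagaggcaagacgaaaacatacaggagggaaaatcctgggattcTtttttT
Rps15a-ps4: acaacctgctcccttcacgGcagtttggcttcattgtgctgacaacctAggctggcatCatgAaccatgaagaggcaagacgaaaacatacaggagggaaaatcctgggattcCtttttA

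The Rplp2 row was listed at 0 FPKM in every library. The row of Rplp2-ps1 held 1749 FPKM for normal cells with LIF, 1268 in HP-labelled cells with LIF, 1247 in normal cells at 24 hours, 1325 in HP-labelled cells at 24 hours and 1305 at 40 days. Rps15a stood at 1.63, 7.75, 0, 0 and 14.7 FPKM in the same order, against 206, 232, 199, 191 and 177 FPKM for Rps15a-ps4 and 166, 170, 153, 165 and 156 FPKM for Rps15a-ps6. The highest value of either Rps15a copy row was thus at most 1.31 times its lowest, whereas the row of the gene ran from 0 to 14.7. Rpl22l1, a paralog of the large subunit protein Rpl22, was likewise listed at 0 throughout. Its copy Gm15421, 99.5% identical over 369 bases, stood between 107 and 138 FPKM. Other pairs differed. Rpl29 stood at 101 to 122 FPKM with its copy Gm8580 at 0.188 to 0.353. Rps26 stood at 179 to 283 FPKM with its copy Gm6654 at 1.83 to 4.22. Rpl34 and its copy Rpl34-ps1 were both listed at 0 throughout. Rpl36a did not exceed 2.31 FPKM, with its copy Gm6525 at 3.23 to 5.59. The pseudogene row Rps4l, related to the X-linked small subunit gene Rps4x, stood at 655, 521, 517, 540 and 335 FPKM. Rps4x itself stood at 224, 234 and 243 FPKM in normal cells with LIF and in the 24 hour libraries, and has a hyphen in place of a value in the others. The authors' handling of fragments that map to several places is a point not given in the sources used here. Which of these rows the fragments came from was not tested.

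**Figure D1:**
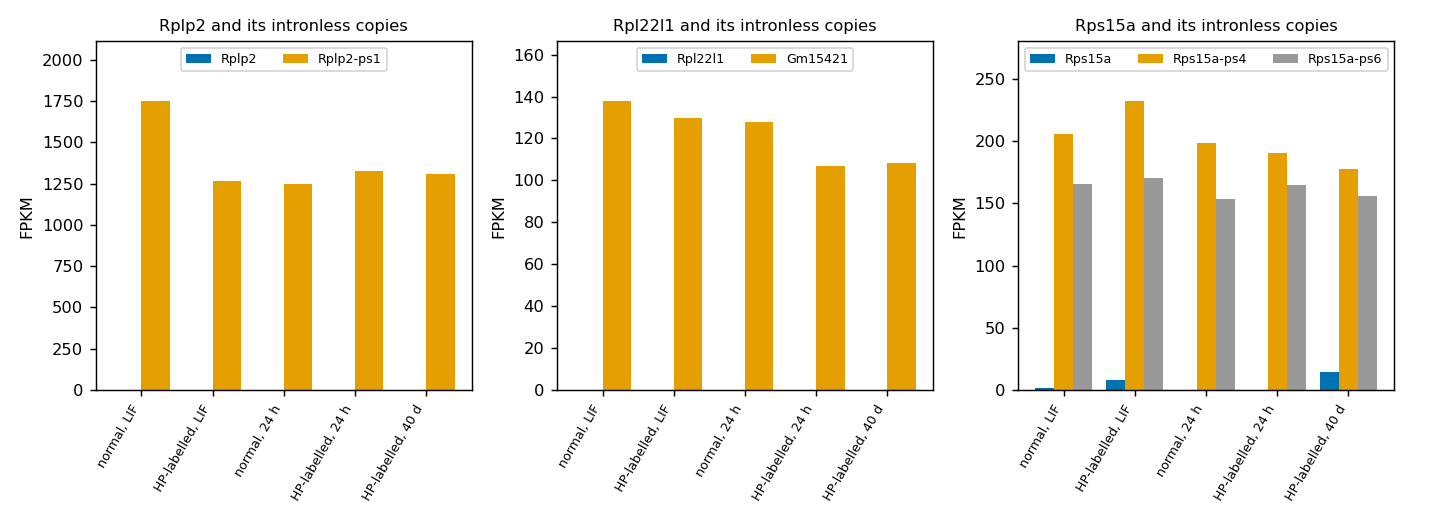
FPKM (y axis) in each of the 5 libraries (x axis, 1 library per bar) for Rplp2, Rpl22l1 and Rps15a and for their intronless copies. The rows of Rplp2 and Rpl22l1 are listed at 0 in every library while their copies stand at 1247 FPKM or more and at 107 FPKM or more.

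Near-identical copies were common across the family. A search of the mm9 genome with each coding sequence, at no less than 95% identity over 90% of its length, found at least 1 copy outside the gene itself for 73 of 83 members with a value and a coding sequence, or 88%. The same search found a copy for 6.62% of the 9329 genes with a coding sequence and a mean of at least 1 FPKM, and for 15.8% of 76 mitochondrial ribosomal protein genes. Rpl21 had 55 copies, Rpl7a 31 and Rpl29 28. Rpl8, the member with the highest mean FPKM, had none.

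An exact 0 can be a failed estimate in this table. Of the 85 members with values in every library, 9 were listed at 0 in every library: Rpl3, Rpl9, Rpl10a, Rpl12, Rpl22l1, Rpl28, Rpl34, Rplp2 and Rps12. A further 18 were listed at 0 in some libraries and 58 in none. Rps4x and Rps25 have hyphens and were left out of all sums and ratios. Rpl3 shapes the peptidyl transferase centre and Rpl10a, Rpl12 and Rps12 are standard subunits, yet each was listed at 0 in growing cells. By library, 15 members were at 0 in normal cells with LIF, 21 in HP-labelled cells with LIF, 21 and 23 in the 24 hour libraries (normal and HP-labelled), and 12 at 40 days. The share of all genes at 0 is not given by library, so these counts do not show whether the family differs from other rows. Of the 71 members with a mean of at least 1 FPKM, 14 were at 0 in at least 1 library, where 7.81% of all 9590 such genes were.

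Members at 0 were spread over all numbers of copies, without an even trend. Among all members with a coding sequence, 1 of 10 with no copy found was at 0 in at least 1 library. With 1 to 2 copies it was 5 of 16, and with 3 to 5 copies 6 of 18. With 6 to 10 copies it was 13 of 24, and with over 10 copies 2 of 15. Rpl24 was the member at 0 with no copy found. The sequence searched for it was 3153 bases long, so a much shorter copy would not have counted. Rps19 and Rpl13a also had no copy found, at 639 and 1272 bases, yet have 13 and 1 pseudogenes of the same name. The others in this class had none of the same name. Whether copies were missed in this class was not tested. The 9 members at 0 throughout had a median of 5 copies, those at 0 in some libraries 6 and those above 0 in every library 4. Rpl21, with the most copies, was among the steadiest members.

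**Figure D2:**
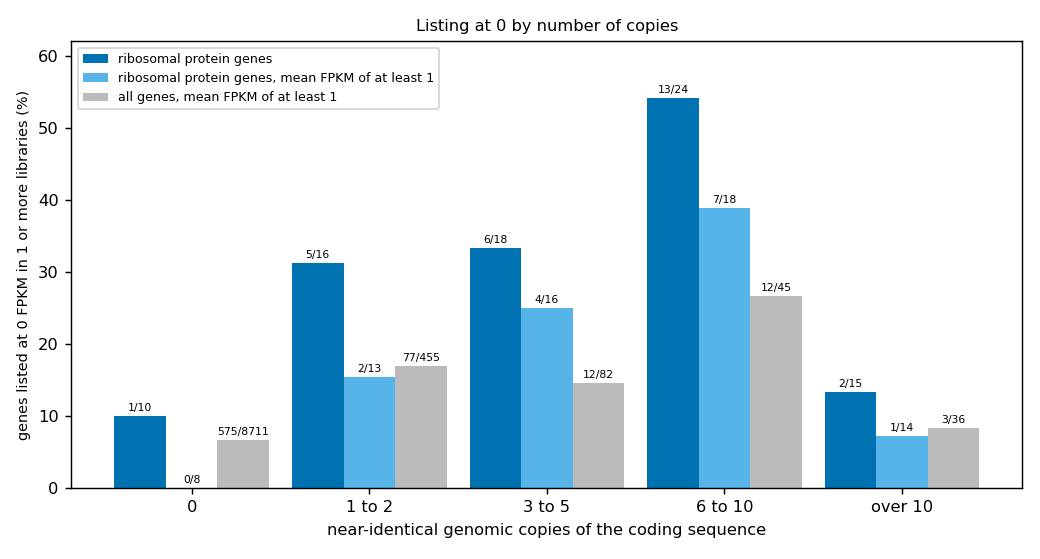
Percentage of genes listed at 0 FPKM in 1 or more libraries (y axis) by number of near-identical genomic copies (x axis), for ribosomal protein genes with values, those with a mean of at least 1 FPKM, and all genes with such a mean; numbers over the bars are genes at 0 of genes in the class. The highest share is 13 of 24 ribosomal protein genes with 6 to 10 copies, and the class with over 10 copies is lower at 2 of 15.

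The levels, which are per transcript length, ran from 0 to 2526 FPKM. Their order between genes is limited by the placement of fragments between genes and copies, which was not tested. Rpl8, a protein of the large subunit core, had the highest values, at 2526, 2167, 2014, 2134 and 2064 FPKM (libraries in the order given above, here and below). It was highest in normal cells with LIF and spanned 0.33 on the log2(FPKM + 1) scale. Rps9, Rpl41 and Rpl4 had means of 1223, 1098 and 880 FPKM. The means of Rps2, Rps20, Rps21 and Rps3 were 684, 586, 503 and 459 FPKM. In each library, the 10 members highest in that library held 62.6% to 65.1% of the family's FPKM. The median member stood at 77.0, 38.0, 47.0, 45.2 and 43.6 FPKM.

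Summed over the 85 members, the family reached 19141 FPKM for the normal library with LIF and 15015, 16641, 16459 and 15424 FPKM for the other libraries. As a share of all FPKM this was 6.58%, 5.62%, 5.81%, 6.09% and 5.77%. Normal cells with LIF were highest by both measures. Fau, a ribosomal protein outside the symbol rule that is made as a fusion to a ubiquitin-like protein, was highest there too, at 15.8, 11.4, 12.4, 13.3 and 9.27 FPKM.

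**Figure D3:**
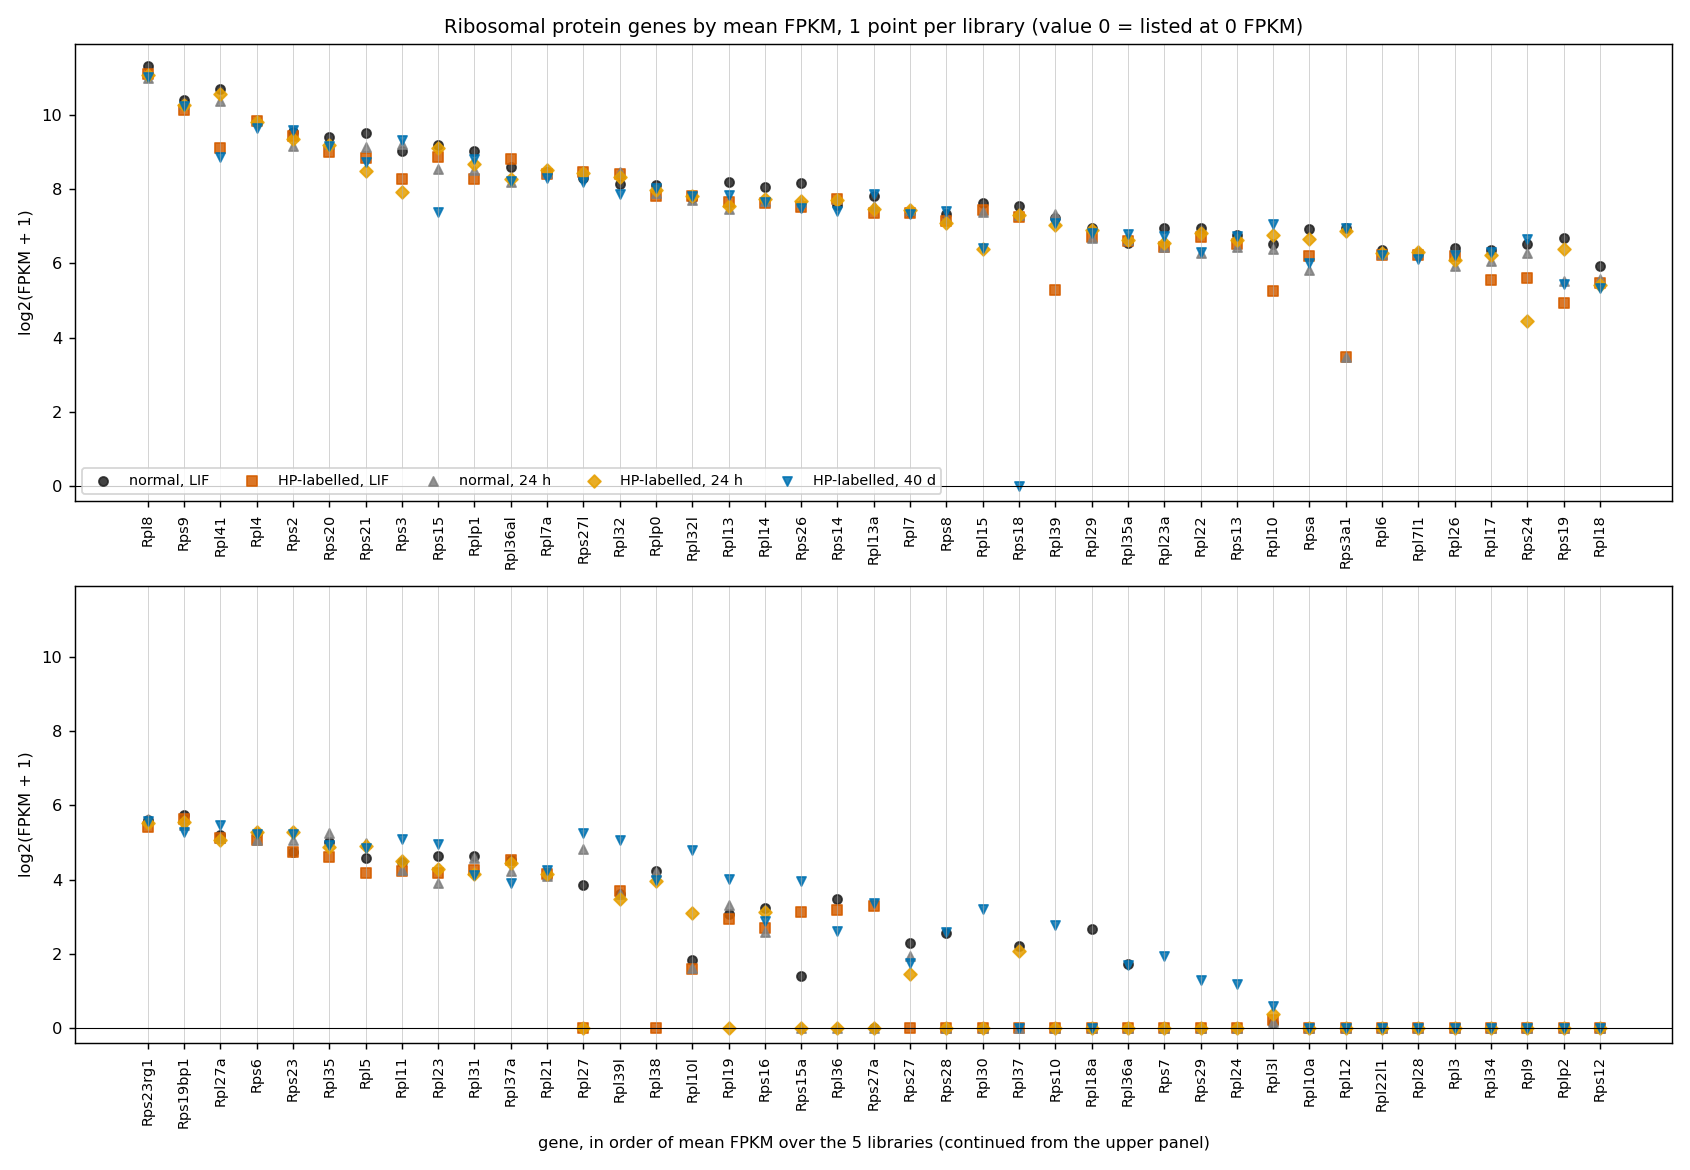
log2(FPKM + 1) of 82 ribosomal protein genes with values (y axis), ordered by mean FPKM (x axis, continued in the lower panel), with 1 point per library. Most genes have 5 points close together, Rps18 has 1 library at 0 and Rps3a1 has 2 libraries far below its others, and 9 genes are at 0 in every library.

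Libraries were first checked as a whole. The depth estimated from the spacing of low FPKM values was 37500000 to 43000000 fragments, at which 1 fragment on a transcript of the median member length of 833 bases is worth 0.0279 to 0.0320 FPKM. Hk2 stood at 76.2 and 98.6 FPKM with LIF (normal and HP-labelled) and at 49.7 and 59.0 FPKM at 24 hours, and Pkm at 510, 567, 611 and 564 FPKM in the same order, so that both targeted genes were less than 2-fold apart between normal and HP-labelled libraries, and Pkm was the lower in the HP-labelled library at 24 hours. These values do not by themselves bear out the labelled overexpression. The Pkm values are for the gene as a whole and do not separate Pkm2. Directions between the cell types below are between the labels. The Y-linked helicase gene Ddx3y stood at 11.8 FPKM in both normal libraries, at 0.0225 and 0.0130 FPKM in the HP-labelled libraries with LIF and at 24 hours, and at 1.79 FPKM at 40 days. The 10 embryonic stem cell markers were above 0 in every library, with sums of 3499, 3366, 3019, 2913 and 2015 FPKM. The 10 endoderm markers summed to 306 FPKM at 40 days and to 6.20 to 33.2 FPKM elsewhere, with 1 of them at 0 throughout. The 12 fibroblast and feeder markers summed to 88.0 to 171 FPKM with 7 at 0 in at least 1 library, and the 12 mesoderm and neural markers to 7.02 to 59.9 FPKM with 5 at 0 in at least 1. Whether these differences play a part in the values below was not tested.

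With LIF, most ribosomal protein genes were lower in the HP-labelled library than in normal cells. Of the 71 members with a mean of at least 1 FPKM, 57 had a log2 ratio of FPKM + 1 below 0, where 55.1% of all 9590 genes did, and 12 were above, against 44.1%. In a bulk library, fewer cells of a type and less RNA per cell cannot be told apart. The median ratio was -0.25 for these members and -0.044 for all genes. Without that threshold it was -0.21 over all 85 members with values, and 0 over all 21930 genes. For the 57 members above 0 in every library it was -0.25, with 47 below 0, where 55.9% of 8841 such genes were. At least 2-fold lower were 11 members, against 5.32% of all genes, and 2 were at least 2-fold higher, against 4.11%. Among the 57 members above 0 in every library, 5 were at least 2-fold lower, against 3.59% of such genes, and 0 higher, against 2.53%. The sums of FPKM differ between libraries, and scaling each to a common total moved the median of all genes from -0.044 to 0.064 and the share above 0 from 44.1% to 56.7%. Under that scaling 50 members were below 0 with a median of -0.14. The members' median minus that of all genes was -0.20 with this scaling and -0.21 without it. Quantile normalization gave a members' median of -0.13, with 48 below 0. There the median of all genes was 0.018, and 52.0% of them were above 0.

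The 2-fold differences fell in both subunits. Rpl39, which lines the exit tunnel of the large subunit, stood at 38.0 FPKM in the HP-labelled library with LIF and at 149, 161, 129 and 135 FPKM in the others (normal with LIF, both 24 hour libraries, 40 days). Rpl10, a late-joining protein next to the peptidyl transferase centre, stood at 37.2 FPKM there and at 90.4, 81.8, 107 and 132 FPKM elsewhere. Rps19, the gene most often mutated in Diamond-Blackfan anaemia, stood at 102, 29.7, 45.3, 83.2 and 42.7 FPKM. For each of these 3 genes the HP-labelled library with LIF was the lowest of the 5. The log2 ratios to normal cells with LIF were -1.94 for Rpl39, -1.26 for Rpl10 and -1.75 for Rps19. Rpl41, a very short basic peptide of the large subunit, stood at 1648, 549, 1328, 1498 and 467 FPKM, low also at 40 days.

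Rps3a1, a small subunit protein near the mRNA exit, had the widest swing of any member above 0 in every library. It stood at 124, 10.2, 10.1, 116 and 124 FPKM. The HP-labelled library with LIF and the normal library at 24 hours were low, and the other 3 lay between 116 and 124 FPKM. Its log2 ratio of HP-labelled to normal was -3.47 with LIF and 3.40 at 24 hours. The gene, protein-coding, spans chr3:85941862-85946624 (mm9, minus strand) and has 7 near-identical copies. The stretch below shows how near a copy can be: the closest ungapped copy, at chr14:88522971-88523090 on the minus strand (mm9), differs at 4 of 795 coding bases, 2 of them in coding bases 526 to 645 (capitals).
Rps3a1: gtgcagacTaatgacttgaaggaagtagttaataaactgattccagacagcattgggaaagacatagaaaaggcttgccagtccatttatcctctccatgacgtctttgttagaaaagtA
copy: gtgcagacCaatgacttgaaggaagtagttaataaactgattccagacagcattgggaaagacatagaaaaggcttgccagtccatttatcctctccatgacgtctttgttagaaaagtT

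**Figure D4:**
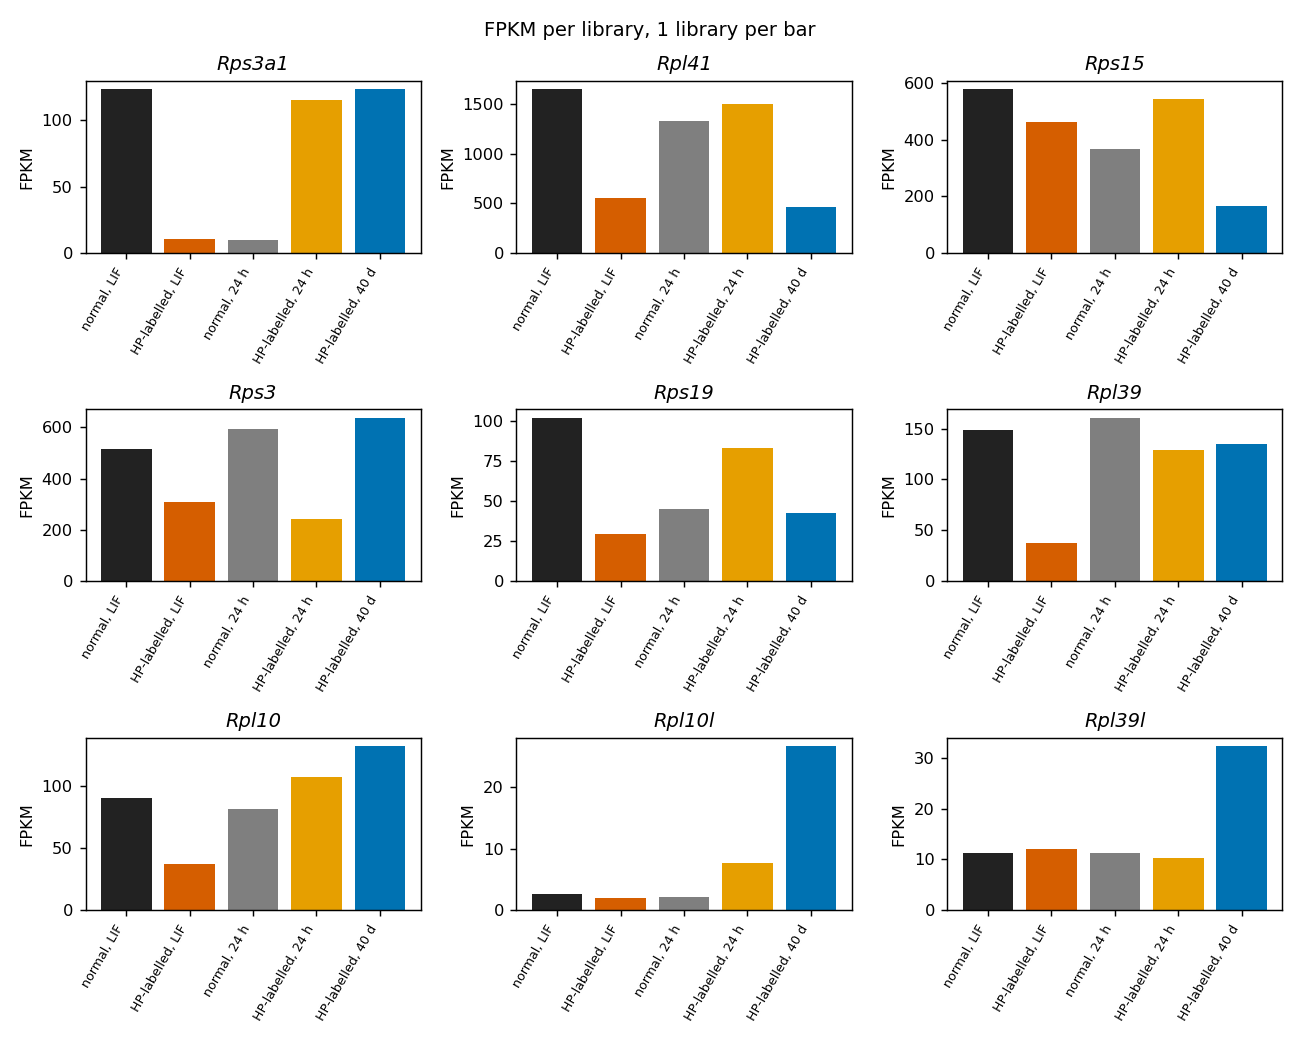
FPKM (y axis) in each of the 5 libraries (x axis, 1 library per bar) for 9 ribosomal protein genes above 0 in every library with a difference of at least 2-fold. Rps3a1 is at 10.2 and 10.1 FPKM in 2 libraries and between 116 and 124 FPKM in the others, and Rpl10l and Rpl39l are highest at 40 days.

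After 24 hours without LIF and its return, the HP-labelled and normal libraries showed no common direction. Of the 71 members 28 were below 0 and 36 above, where 52.8% and 46.2% of all genes were, and the median log2 ratio was 0.01 (all genes -0.021). At least 2-fold lower were 5 members, against 5.18% of all genes, and 3 were at least 2-fold higher, against 4.19%. Among members above 0 in every library these were 2 and 2, against 3.7% and 2.52% of such genes, and the median was 0.07. Rps3, a small subunit protein at the mRNA entry, stood at 595 FPKM in normal and 242 FPKM in HP-labelled cells at 24 hours, after 514 and 308 FPKM with LIF. Rps24, also of the small subunit, stood at 76.9 and 20.7 FPKM at 24 hours, after 91.2 and 48.1 FPKM with LIF. In both cultures the HP-labelled library was the lower for both genes, and at 40 days they stood at 637 and 101 FPKM, the highest values of each. The table has 3 transcripts of Rps24, and 2 of them were at 0 in most libraries.

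Between the 2 normal libraries, the one at 24 hours was the lower for most members. Of 71 members 50 were below 0, where 50.9% of all genes were, and 18 above, against 48.1%, and the median log2 ratio was -0.22 (all genes -0.0055). At least 2-fold lower were 8 members, against 5.51% of all genes, and none was 2-fold higher, against 4.62%. Among members above 0 in every library, 3 were at least 2-fold lower, against 3.86% of such genes, and 0 higher, against 3.13%. The median was -0.11 under quantile normalization, with 42 below 0. There the median of all genes was 0.017, and 52.5% of them were above 0. Over all 85 members with values it was -0.12, and over all 21930 genes 0. Rpsa, the laminin receptor protein that joins the small subunit late, stood at 120, 72.9, 55.4, 99.1 and 63.5 FPKM, a log2 ratio of -1.10 between these normal libraries. Rpl13, of the large subunit, stood at 292, 201, 175, 184 and 226 FPKM, and Rpl8 had a ratio of -0.33. This comparison and that of the cell types with LIF share the library of normal cells with LIF, so they are not independent.

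That shared library was the highest of the 5 for 27 of the 57 members above 0 in every library, or 47.4%, where it was the highest for 22.1% of 8841 genes. The HP-labelled library with LIF was the lowest for 20 of them, or 35.1%, where 22.2% of genes had it lowest. Of the stalk genes other than Rplp2, which was listed at 0, both were highest in normal cells with LIF and lowest in HP-labelled cells with LIF. Rplp0, the stalk's backbone, stood at 277, 222, 238, 251 and 258 FPKM, and Rplp1, an acidic partner, at 523, 305, 366, 403 and 447 FPKM. Rps21, of the small subunit, stood at 723, 458, 555, 357 and 420 FPKM, so that HP-labelled cells were the lower in both cultures.

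In HP-labelled cells, the 24 hour library against that with LIF had a median log2 ratio of 0.08 (all genes 0.0042), with 40 members above 0, where 50.6% of all genes were, and 26 below, against 48.6%. At least 2-fold higher were 9 members, against 5.79% of all genes, and 7 were at least 2-fold lower, against 6.07%. Among members above 0 in every library these were 6 and 2, against 4.2% and 4.54% of such genes. The median was 0.03 under quantile normalization, and 0 over all 85 members or over the 21 without pseudogenes of the same name. Rpl39, Rpl10, Rps19, Rpl41 and Rps3a1 were among the higher ones, at the values given above. Rpl15, a core protein of the large subunit, stood at 195, 172, 166, 82.8 and 83.9 FPKM, low in the HP-labelled cells at 24 hours and at 40 days.

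At 40 days without LIF, 47 members were above the HP-labelled library with LIF, where 54.7% of all genes were, and 22 below, against 44.8%. The median log2 ratio was 0.17 for the members and 0.08 for all genes, and 0.09 for the members after centring on all genes. For the 21 members without pseudogenes of the same name it was 0.025. At least 2-fold higher were 14 members, against 14.0% of all genes, and 3 were at least 2-fold lower, against 8.31%. Among members above 0 in every library these were 7 and 2, against 12.2% and 6.76% of such genes. Rpl39, Rpl10 and Rps3a1, low in that library with LIF, were among the higher ones, with log2 ratios of 1.80, 1.80 and 3.47. With the 24 hour library as the base the median was 0.04 (all genes 0.072), and -0.03 after centring on all genes, with 39 above, where 54.6% of genes were, and 31 below, against 44.8%. In that comparison 13 members were at least 2-fold higher, against 12.1% of all genes, and 4 lower, against 5.78%. Of the 57 members above 0 in every library, 4 were higher, against 10.3% of such genes, and 2 lower, against 4.2%, with a median of -0.02. Rps15, a small subunit protein at the head, stood at 578, 463, 368, 544 and 166 FPKM, lowest at 40 days. Rps18, its neighbour in the head, was listed at 0 there and stood at 152 to 185 FPKM in the other 4 libraries. Rps10 and Rpl30 were above 0 only at 40 days, at 5.85 and 8.17 FPKM, so their mean passed the threshold through that library alone.

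**Figure D5:**
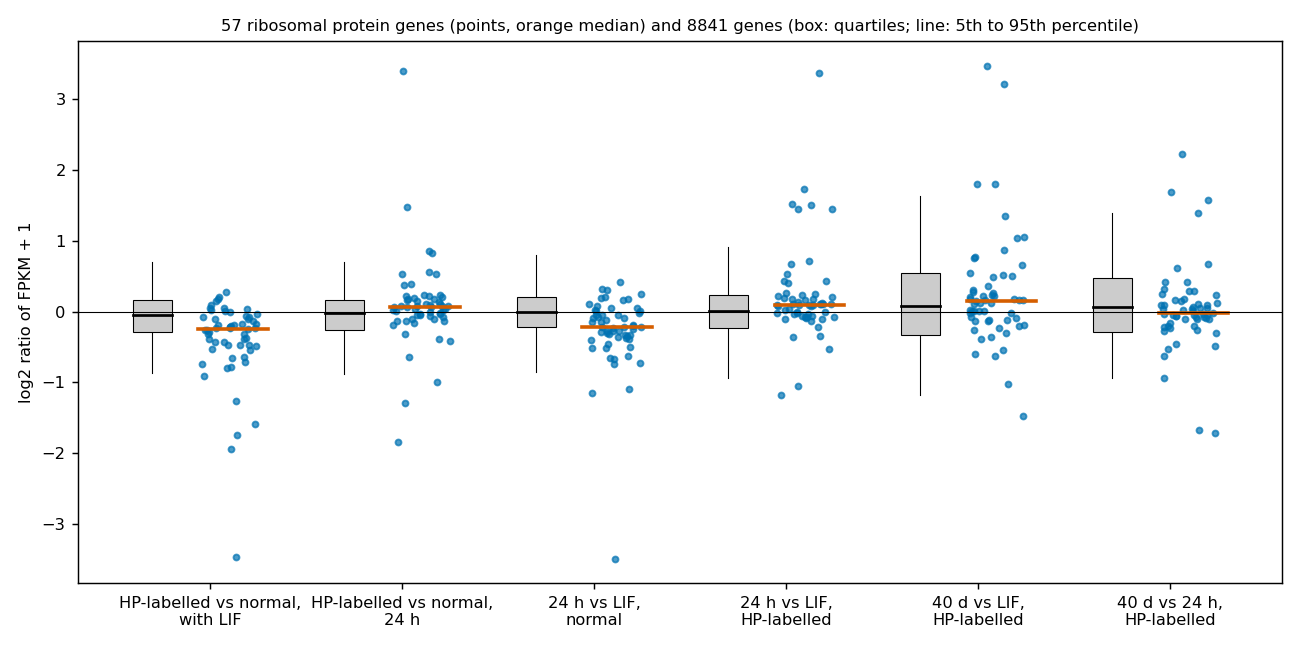
log2 ratio of FPKM + 1 (y axis) in the 6 comparisons (x axis) for 57 ribosomal protein genes above 0 in every library (points, with an orange line at their median) and for 8841 genes (box at the quartiles, line from the 5th to the 95th percentile). The members' median is -0.25 for HP-labelled against normal with LIF and -0.22 between the normal libraries, below the box medians, and lies between -0.02 and 0.15 in the other comparisons.

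Rpl10l and Rpl39l stood below their parent genes in every library and were highest at 40 days. Rpl10l, an autosomal, intronless relative of X-linked Rpl10 that is known from the testis, stood at 2.56, 1.99, 2.07, 7.56 and 26.7 FPKM. It is 84.8% identical to Rpl10 over 645 coding bases. Rpl39l, likewise known from male germ cells and 85.3% identical to Rpl39, stood at 11.2, 12.0, 11.3, 10.2 and 32.4 FPKM. As a share of the parent's FPKM, Rpl10l stood at 0.0283, 0.0535, 0.0253, 0.0705 and 0.202, and Rpl39l at 0.0756, 0.316, 0.0703, 0.0786 and 0.239. The second value for Rpl39l comes with the low Rpl39 of HP-labelled cells with LIF.

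Rpl36al and Rps27l stood above the rows of their parents. Rpl36al stood at 386, 447, 292, 310 and 294 FPKM while its parent Rpl36a was listed at 0 in 3 libraries and stood at 2.31 and 2.23 FPKM in normal cells with LIF and at 40 days. Rps27l, a target of p53, stood at 312, 352, 355, 343 and 293 FPKM, with Rps27 at 3.89, 0, 2.83, 1.77 and 2.34 FPKM. The Rps27 values came wholly from its non-coding transcript, and its coding transcript was listed at 0 in every library. Rps27 has 5 near-identical copies and Rps27l none, while Rpl36a has 7 and Rpl36al 1. Whether the rows of these parents measure their mRNAs was not tested. Rpl7l1 was steady at 68.3 to 78.6 FPKM, between 0.428 and 0.462 of Rpl7, and Rpl3l, known from striated muscle, did not exceed 0.500 FPKM. Rpl32l stood at 207 to 223 FPKM and Rpl32 at 233 to 350 FPKM. Rps23rg1 and Rps19bp1 stood at 41.8 to 48.7 and 37.6 to 52.0 FPKM.

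The steadiest members with a mean of at least 1 FPKM were Rpl7, Rpl32l, Rpl6, Rpl21, Rpl7l1, Rpl7a, Rps23rg1 and Rps6, with ranges of 0.11 to 0.22 on the log2(FPKM + 1) scale over the 5 libraries. Rpl7, a large subunit protein, stood at 167, 162, 172, 172 and 159 FPKM. Rpl6, also of the large subunit, stood at 80.2, 73.0, 75.2, 76.9 and 74.3 FPKM. Rps6, the small subunit protein phosphorylated by the S6 kinases, stood at 37.4, 32.2, 32.5, 37.6 and 36.1 FPKM. The widest ranges among members above 0 in every library were those of Rps3a1 at 3.49, Rpl10l at 3.21, Rps24 at 2.23 and Rpl39 at 2.05.

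A model with cell type and culture as terms was fitted to the 4 libraries of the paired layout with limma, with adjustment over 9590 genes. No member and no other gene passed an adjusted p of 0.05 for either term, so 0.0% of genes were called. At an unadjusted p under 0.05, limma had 6 of 71 members for cell type, all lower in HP-labelled cells, where 9.57% of all genes were, and 6 for culture, 4 lower and 2 higher at 24 hours, where 12.0% of all genes were. For cell type the smallest was that of Rpl27, with a limma adjusted p of 0.512, which was listed at 0 in both HP-labelled libraries of the fit. Of members above 0 in every library it was that of Rps21, with an estimate of -0.65 (SE 0.085) on the log2 scale and a limma adjusted p of 0.512. For culture it was that of Rpl36, listed at 0 in both 24 hour libraries, and of members above 0 in every library that of Rpl36al, with an estimate of -0.47 (SE 0.087) and a limma adjusted p of 0.347. Rpl5, which with Rpl11 binds Mdm2, had an estimate of 0.57 (SE 0.12) and a limma adjusted p of 0.366. Rps3a1, whose ratios have opposite signs in the 2 cultures, had an estimate of -0.04 (SE 2.19) for cell type.

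Genes that act with the ribosomal proteins were set beside them. The 16 TOP-type translation factors with a mean of at least 1 FPKM had a median log2 ratio of -0.07 for HP-labelled against normal with LIF, with 9 below 0, and of -0.10 between the normal libraries. Eif3h, a subunit of initiation factor 3, stood at 128, 26.4, 114, 114 and 85.5 FPKM, lowest in the library where Rpl39 and Rpl10 were lowest. Eef2, the translocation factor, stood at 775, 503, 747, 617 and 672 FPKM, and Rack1, a scaffold on the small subunit, at 1605, 1233, 1451, 1466 and 1516 FPKM. The 42 ribosome biogenesis genes had medians of -0.04 and -0.02 in these comparisons, with 24 and 25 below 0, near those of all genes. The 13 genes of the RNA polymerase I list had medians of -0.04 and 0.07. Polr1c, a subunit shared with polymerase III, stood at 109 and 108 FPKM in the normal libraries and at 24.4, 26.0 and 27.3 FPKM in the HP-labelled ones.

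The 28 initiation factors had medians of -0.05 and -0.04, with 15 and 18 below 0, and the 13 TOP mRNA regulators 0.02 and 0.11. Mitochondrial ribosomal protein genes, 73 with such a mean, had medians of -0.14 and -0.13, with 52 and 60 below 0. The 35 replication histone genes had medians of -0.44 and -0.43, with 30 below 0 in each. The 10 reference genes had medians of -0.15 and 0.01. In these same comparisons the ribosomal protein medians were -0.25 and -0.22. No gene of these lists passed the limma test, which called none of the 9590 genes, so this says nothing particular about the lists. At 40 days against LIF in HP-labelled cells, biogenesis genes had a median of -0.13, initiation factors -0.18 and mitochondrial ribosomal proteins -0.13, while the ribosomal protein median was 0.17, or 0.025 for the 21 members without pseudogenes of the same name.

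The start regions of the genes were compared by letters, from the RefSeq promoter table on GRCm38.p6, which holds an entry for 57 of the 77 standard members. A pyrimidine 5-mer (CTTTT or CTTTC or CTCTT or CCTTT or CTTCC) lay within 10 bases of the start on the sense strand in 21 of the 57, or 36.8%, where 12.5% of 27025 genes in the table had one. The ETS-type motif CCGGAAG lay on either strand of the 300-base window in 24 of 57, or 42.1%, against 9.93% of genes. Its reverse strand contains CTTCC, so the 2 searches overlap. TATAAA lay 40 to 15 bases before the start in 0 of 57 and in 2.41% of genes. A match describes letters only. The 3 stretches below, from 40 bases before the start to 20 after it, show the tract in an abundant gene (Rps9), in a steady one (Rpl7a) and the ETS-type motif in the gene with the widest swing (Rps3a1), with matches in capitals. They lie at chr7:3704001-3704060 on the plus strand, chr2:26910767-26910826 on the plus strand and chr3:86142649-86142708 on the minus strand (GRCm38.p6).
Rps9: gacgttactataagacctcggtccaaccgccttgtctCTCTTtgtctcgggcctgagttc
Rpl7a: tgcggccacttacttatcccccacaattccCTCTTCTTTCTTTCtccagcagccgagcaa
Rps3a1: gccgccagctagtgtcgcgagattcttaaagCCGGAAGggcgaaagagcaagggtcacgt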

How the data were processed

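The members and gene lists were chosen with earlier results of these data known. Per the labels' protocols the kit was TruSeq. Whether its libraries kept the strand was not tested, so overlapping antisense genes may not be separated. The authors deposited FPKM per RefSeq transcript, made with TopHat2 2.0.7 and Cufflinks 2.0.2 on mm9, per the submitters' processing notes, with further settings not given in the sources used here. Symbols came by accession (28066 of 28698 transcripts) from a RefSeq table of GRCm38.p6, and FPKM was summed per gene. The 337 genes with a hyphen in place of a value were left out. Ratios are of log2(FPKM + 1), which understates changes at low values, among 9590 genes with a mean of at least 1 FPKM. Limma 3.58.1 (R 4.3.3, eBayes with trend, Benjamini-Hochberg) was fitted to 4 libraries with cell type and culture as terms, leaving 1 residual and 1.46 prior degrees of freedom, and was tested on simulated data; its residual holds the interaction as well as library noise. Nothing in the labels says that libraries of a cell type are separate lines, so p-values may measure technical spread only. Copies were searched with BLAST+ 2.17.0 (megablast, word size 28) from GENCODE vM1 coding sequences, at 95% identity over 90% of the query. Coordinates are GENCODE vM1 on mm9 unless GRCm38.p6 is named. Named genes are the stalk genes and Rpsa, paralogs with parents, the 10 highest and lowest by mean, members at 0 in a library or at least 2-fold different, the 8 steadiest and 8 widest, the 5 largest limma estimates each way, and up to 4 genes per other list; Rps6, Rpl24 and the copy rows were added after their values were seen. Alternatives were another pseudocount, filter, scaling, centring, transcript choice and limma setting, and subsets of members. A few genes are not reported here by name.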

Additional observations from a re-analysis of the deposited data

Results flagged for a closer look

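In 2 genes the HP-labelled library was at least 2-fold below the normal library in one culture and at least 2-fold above it in the other. Rps3a1 had a log2 ratio of -3.47 with LIF and 3.40 at 24 hours. Rpl37, a large subunit protein, had -2.21 with LIF and 2.07 at 24 hours; it was listed at 0 in 1 library of each pair and its highest value was 3.63 FPKM, so these ratios rest on the added 1 FPKM. With 1 library per group the difference between the cultures was not tested.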

How the results depend on the processing

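No median changed sign for HP-labelled against normal with LIF (-0.30 to -0.13 over 11 alternatives), between the normal libraries (-0.23 to -0.11) or at 40 days against LIF (0.03 to 0.18). In HP-labelled cells 40 days against 24 hours ranged from -0.03 to 0.07, and the other 2 comparisons from 0 to 0.10 and from 0 to 0.09. Medians moved by over 0.1 on scaling FPKM to a common total (-0.14 with LIF), on quantile normalization (-0.13 with LIF and -0.11 between normal libraries) and without members that have pseudogenes of the same name (0.025 at 40 days against LIF, 21 members left); the cause was not tested. Quantile normalization also moved the median of all genes by -0.11 at 40 days against LIF and by -0.12 at 40 days against 24 hours. Limma called 0 genes for either term under every alternative run. Of 79 single-gene ratios of at least 2-fold, none reversed, and in 23 of 631 refits the ratio fell under 2-fold. The limma fit has culture as a term, so it compares the cell types in pairs by culture; with 1 library per group there were no replicate numbers to pair. Leaving out a library removes a group, so none was left out. Depth bounds only values near 0.03 FPKM; rows at 0 with near-identical copies are limited by the placement of fragments, which was not tested.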
